A study of Homo sapiens with 9 samples.

Results

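A set of 9 genes of the megakaryocyte and platelet lineage were followed in human K-562 cells: the transcription factors RUNX1 and FLI1, the integrin subunits ITGA2B and ITGB3, the von Willebrand factor receptor subunits GP9 and GP1BA, the chemokines PF4 and PPBP, and the tetraspanin CD9. They were chosen by name, as 9 of the 59653 gene symbols in the table of read counts, with earlier results of these data known. The questions were which of them are transcribed in mock-treated cells and whether their levels differ in cells given a B2M-directed repressor.

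Megakaryocytes are the large bone marrow cells that shed platelets, and they arise close to the erythroid lineage. Factors of the GATA, ETS and RUNX families act together there and switch on genes for platelet adhesion receptors and for proteins stored in alpha granules. The receptor for fibrinogen is the pair of ITGA2B and ITGB3, and the receptor that first catches von Willebrand factor is the GPIb-IX-V complex. K-562 is a chronic myeloid leukaemia line grown in suspension that carries BCR-ABL1 and is widely used as a model of erythroid and megakaryocytic cells.

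All cells carried a B2M tdTomato genotype, and nucleofection is given as the treatment of every sample. The 3 groups of 3 libraries were mock-treated cells, cells that received mRNA of a tripartite ETR (a repressor built on catalytically inactive Cas9) and a full-length gRNA to the B2M promoter, and cells in which that ETR was paired with a gRNA truncated to 16 nt. They are called the mock, the full-length and the 16-nt group below. The labels do not give what the mock cells received, the time of harvest, any sorting, or whether replicates were separate cultures, so the p-values below measure the spread between libraries. Total counts ran from 23763529 to 33260228 per library.

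B2M, the target of the gRNAs, served as the check of the labels. Its counts were 3681, 4304 and 3718 in mock, 309, 268 and 216 in the full-length group, and 462, 714 and 423 in the 16-nt group. Its log2 fold change against mock was -3.84 (SE 0.12) in the full-length group and -2.85 (SE 0.11) in the 16-nt group, with edgeR adjusted p of 3.5e-11 and 1.08e-09. The samples are labelled as lymphoblasts, and 9 of 10 lymphocyte markers did not reach 1 TPM in each mock library (TPM is the count divided by gene length and scaled to the same total in every library), while 11 of 12 erythroid markers, 4 of 8 epithelial markers and 0 of 8 fibroblast and endothelial markers reached it. The summed lymphocyte markers ran from 3.12 to 3.83 TPM in mock, from 3.30 to 5.08 in the full-length group and from 3.34 to 4.65 in the 16-nt group, with CD8A and MS4A1 at 0 counts throughout. The erythroid sum ran from 1649 to 2038 TPM in mock, from 1457 to 2550 in the full-length group and from 1768 to 1952 in the 16-nt group. None of 10 monocyte and granulocyte markers reached 1 TPM, and their sum was higher in the gRNA groups, at 0.195 to 0.316 TPM in mock, 0.397 to 0.601 in the full-length group and 0.350 to 1.03 in the 16-nt group. The part of these traces in the results below was not tested.

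A gene was taken as on when it reached at least 1 TPM in each of the 3 mock libraries, as a trace when it had a count in mock without reaching that level, and as without a count at 0. By that rule CD9, ITGA2B and RUNX1 were on, PF4, ITGB3, PPBP and GP9 were traces, and FLI1 and GP1BA had no count. Of all genes 20.3% were on, against 3 of these 9. In TPM, which compares genes per length, mock CD9 stood highest at 5.57 ± 1.33 (SD, n = 3), ITGA2B next at 3.78 ± 0.505 and RUNX1 at 1.64 ± 0.181. These were modest levels, since genes that were on had a median of 13.1 TPM in mock. Of those 12098 genes, 27.6% lay below CD9, 19.8% below ITGA2B and 4.24% below RUNX1.

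In TPM the order of the 3 genes that were on held in every mock library. The lowest CD9 value of 4.59 TPM exceeded the highest ITGA2B value of 4.36, and the lowest ITGA2B value of 3.46 exceeded the highest RUNX1 value of 1.81. This order rests on merged exon lengths of 15574 bases for RUNX1, 5695 for ITGA2B and 4165 for CD9. Before division by length, RUNX1 had more counts than ITGA2B in each mock library. It also had more than CD9 in mock libraries 1 and 2, but not in 3. In TPM PF4 came next, at 0.433 ± 0.469, and stayed under RUNX1 in each library. It exceeded ITGB3 in each mock library, at 0.211, 0.972 and 0.116 TPM against 0.129, 0.0790 and 0.0708, though their ranges overlapped and PF4 rested on 2 reads and 1 read in mock libraries 1 and 3. PPBP reached at most 0.0687 TPM and GP9 at most 0.102 TPM, and their ranges overlapped. As these are bulk libraries, fewer cells that transcribe a gene and less RNA of it per cell cannot be told apart.

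**Figure D1:**
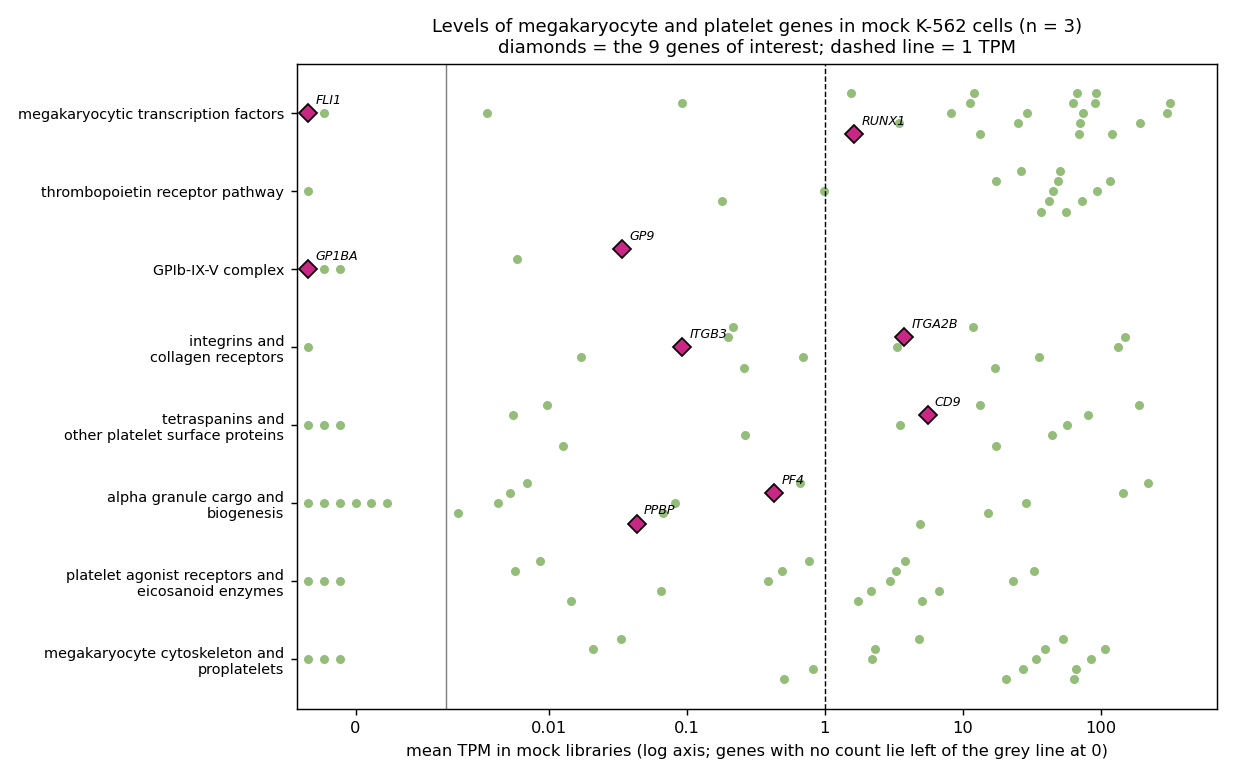
Mean level in the 3 mock libraries of the 9 genes (diamonds) and the 119 other genes of 8 megakaryocyte and platelet lists (circles), in TPM on a log axis; vertical offsets within a list carry no value. CD9, ITGA2B and RUNX1 lie right of the dashed line at 1 TPM, 4 diamonds lie between it and the grey line, and FLI1 and GP1BA lie left of the grey line at 0.

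Promoter sequence is shown for 3 genes because they differ in level: ITGA2B was on, while GP9 and PPBP were traces. Each is the 250 bases before the RefSeq transcription start on GRCh38.p14, on the gene's strand, at chr17:44389650-44389899 (minus) for ITGA2B, chr3:129060529-129060778 (plus) for GP9 and chr4:73988191-73988440 (minus) for PPBP. Capitals mark matches on either strand to AGATAA or GATAA (GATA family), to CGGAAG or AGGAAG (ETS family, to which FLI1 belongs) and to TGTGGT or TGCGGT (RUNX family).
ITGA2B: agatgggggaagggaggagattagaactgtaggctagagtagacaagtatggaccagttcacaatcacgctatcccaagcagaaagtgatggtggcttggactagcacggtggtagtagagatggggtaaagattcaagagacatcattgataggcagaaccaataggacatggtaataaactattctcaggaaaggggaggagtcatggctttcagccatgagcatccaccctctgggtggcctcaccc
GP9: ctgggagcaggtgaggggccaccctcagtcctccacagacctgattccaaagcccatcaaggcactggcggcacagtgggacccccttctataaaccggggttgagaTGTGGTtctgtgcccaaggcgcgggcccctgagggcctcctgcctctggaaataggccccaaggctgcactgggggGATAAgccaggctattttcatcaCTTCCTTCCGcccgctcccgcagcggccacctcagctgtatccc
PPBP: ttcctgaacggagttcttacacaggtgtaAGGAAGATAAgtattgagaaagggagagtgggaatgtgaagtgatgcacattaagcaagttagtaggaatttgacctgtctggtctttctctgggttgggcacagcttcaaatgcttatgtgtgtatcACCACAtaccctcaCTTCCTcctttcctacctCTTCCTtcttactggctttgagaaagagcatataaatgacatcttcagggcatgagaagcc
The ITGA2B stretch held no match, and its 300-base window, which runs on 50 bases from the start, held 1 ETS match, 1 base after the start base. The GP9 window held GATAA at 67 bases before the start, a RUNX match at 143 and a pair of ETS matches at 44 and 40 that overlap each other. In PPBP an ETS match at 221 bases before the start overlapped AGATAA at 217, a RUNX match lay at 93, further ETS matches lay at 79 and 61, and another AGATAA lay 2 bases after the start base. For these letters the GP9 and PPBP windows thus held more matches than the ITGA2B window. Other spellings of the motifs, such as GATAG, which the ITGA2B stretch holds, were not counted. A match is a run of letters, not a site shown to be bound. Among all 35116 windows of this length, 10.3% held AGATAA, 22.7% GATAA, 46.9% an ETS match and 19.6% a RUNX match. Of the 9 genes, 5 had a window: these 3, RUNX1 and CD9. CD9, the highest in TPM of the genes that were on, had 4 windows with 12, 32, 30 and 1 CpG dinucleotides. These 4 windows held 1 ETS match and 1 RUNX match in all. The RUNX1 window held none of the motifs and 40 CpG dinucleotides, more than 92.4% of windows, against 2 in ITGA2B, 8 in GP9 and 1 in PPBP, where the median window had 14.

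RUNX1 is the DNA-binding subunit of core-binding factor and is needed for megakaryocyte maturation. It lies on chr21:34787801-36004667 (minus strand, GRCh38), with 15574 exon bases in 27 merged exon blocks. Its counts were 278, 413 and 315 in mock, 262, 312 and 282 in the full-length group, and 294, 403 and 311 in the 16-nt group. As CPM, the count scaled to a common library size (TMM), these were 11.1, 12.9 and 11.5, then 9.18, 10.7 and 11.9, then 12.1, 12.6 and 12.04. Both groups overlapped mock, but every 16-nt library stood above every full-length library. The groups averaged 11.8 ± 0.955, 10.6 ± 1.34 and 12.2 ± 0.299 CPM (SD, n = 3). The log2 fold change against mock was -0.16 in the full-length group (SE 0.12, 95% interval -0.42 to 0.087, edgeR adjusted p = 0.992). With the 16-nt gRNA it was 0.047 (SE 0.12, 95% interval -0.20 to 0.30, edgeR adjusted p = 0.978). Between the gRNA groups the difference was 0.21, higher in the 16-nt group (SE 0.12, 95% interval -0.040 to 0.46, edgeR unadjusted p = 0.0926), and it did not pass. Single libraries moved these values: RUNX1 in the full-length group against mock was -0.070 without full-length library 1, -0.096 without mock library 2 and -0.25 without full-length library 3, and the difference between the gRNA groups was 0.11 without full-length library 1. Separation of the kind RUNX1 shows between the gRNA groups occurred in 5.58% of the 15213 tested genes.

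FLI1 encodes the ETS factor that drives megakaryocyte genes such as GP9, GP1BA, ITGA2B and PF4. It lies on chr11:128686535-128813267 (plus strand), with 8026 exon bases in 12 blocks. FLI1 had 0 counts in all 9 libraries. A count of 0 allows up to 3 counts per library, which is a level of 0.0234 to 0.0335 TPM depending on the library, and 0.0121 CPM over the 9 libraries together. Such limits and the intervals of ratios below cover counting error only. Of its exon bases 329 are shared with the antisense genes SENCR and AP001122.1, and the rest belong to FLI1 alone. Its ETS relative ETV6, a repressor needed in blood stem cells, stood at 8.23 ± 0.709 TPM in mock, and ERG had 1 count in mock.

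Beside RUNX1 and FLI1 the list of megakaryocytic transcription factors held 22 genes, of which 19 were on. The erythroid factor KLF1 stood at 317 ± 28.3 TPM in mock, GATA1 at 299.6 ± 21.4 and GATA2 at 191 ± 25.9 (SD, n = 3), while HOXA9 had no count. CBFB, the partner of RUNX1, stood 15.1 ± 2.08 times above it in TPM within the mock libraries. Of 20 tested factors, 7 were higher and 13 lower in the full-length group, and 10 were higher and 10 lower in the 16-nt group. No factor passed in either comparison. In the full-length group the smallest p belonged to MYB (log2 fold change -0.19, SE 0.09).

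ITGA2B encodes integrin alpha-IIb, also known as CD41 and an early surface marker of the lineage, which reaches the surface only in a pair with the beta-3 subunit. It lies on chr17:44372180-44389649 (minus strand), with 5695 exon bases in 23 blocks. Its counts were 242, 320 and 277 in mock, 244, 304 and 285 in the full-length group, and 205, 318 and 323 in the 16-nt group. As CPM they were 9.68, 10.0 and 10.1 in mock, 8.55, 10.4 and 11.98 in the full-length group, and 8.42, 9.93 and 12.5 in the 16-nt group. The mock libraries lay within a narrow band, and both gRNA groups reached below and above it. Group means were 9.92 ± 0.212, 10.3 ± 1.72 and 10.3 ± 2.06 CPM. The log2 fold change was 0.054 in the full-length group (SE 0.15, 95% interval -0.27 to 0.38, edgeR adjusted p = 0.993). With the 16-nt gRNA it was 0.052 (SE 0.15, 95% interval -0.27 to 0.37, edgeR adjusted p = 0.980). The 16-nt group differed from the full-length group by -0.0018 (95% interval -0.32 to 0.32). The highest ITGA2B value in each gRNA group was library 3, and without both of these libraries the log2 fold changes were -0.063 and -0.11.

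ITGB3 encodes integrin beta-3 (CD61), which pairs with ITGA2B on platelets and with ITGAV elsewhere. It lies on chr17:47253827-47313743 (plus strand), with 6340 exon bases in 15 blocks. Its counts were 10, 8 and 5 in mock, 10, 4 and 4 in the full-length group, and 5, 14 and 4 in the 16-nt group. These are traces in every group, and the groups overlapped. Summed counts gave a ratio to mock of 0.824 (95% interval 0.419 to 1.60) in the full-length group and of 1.04 (0.557 to 1.94) in the 16-nt group. In mock ITGB3 stood at 0.0928 ± 0.0312 TPM, and ITGA2B exceeded it 26.9 to 61.7 times per length in single mock libraries. Of the ITGB3 exon bases 35.7% are shared with AC068234.1 on the same strand. With the 4074 unshared bases as its length, mock ITGB3 was 0.144 ± 0.0486 TPM, still far under 1.

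The other integrin and collagen receptor genes were split as well. Of 12 genes 6 were on, led by ITGB1 at 151 ± 31.9 TPM, the talin gene TLN1 at 134 ± 9.60 and ITGA5 at 35.5 ± 2.74, while CLEC1B, a platelet podoplanin receptor, had no count. Of 8 tested genes, 3 were higher and 5 lower in the full-length group, and 2 were higher and 6 lower in the 16-nt group. FERMT3 encodes kindlin-3, which is needed to activate the ITGA2B and ITGB3 pair. Its CPM was 30.5, 24.2 and 19.0 in mock, 18.6, 19.3 and 18.2 in the full-length group, and 20.3, 16.5 and 17.3 in the 16-nt group. Mock libraries 1 and 2 exceeded all 6 others, while mock library 3 lay among them. Its log2 fold change in the 16-nt group was -0.45 (SE 0.14, edgeR unadjusted p = 0.00673, edgeR adjusted p = 0.978), and -0.26 without mock library 1. RASGRP2, the exchange factor that activates RAP1 in platelets, had a log2 fold change of 0.55 in the full-length group (SE 0.19, edgeR unadjusted p = 0.0130, edgeR adjusted p = 0.992).

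GP9 and GP1BA encode subunits of the GPIb-IX-V complex, and GP1BA carries the site that binds von Willebrand factor. GP1BA, on chr17:4932277-4935023 (plus strand; 2514 exon bases in 2 blocks), had 0 counts in all 9 libraries, which allows 0.0747 to 0.107 TPM per library, and 97 of its exon bases are shared with the antisense gene CHRNE. GP9, on chr3:129060779-129062406 (plus strand; 877 exon bases in 3 blocks), had 1 count in library 3 of each group and 0 in the other 6. This gave a mock mean of 0.0341 ± 0.0591 TPM for GP9 and a ratio to mock of 1.05 (95% interval 0.0134 to 82.6) in the full-length group and 1.04 (0.0132 to 81.6) in the 16-nt group. These intervals are so wide that only a very large change in GP9 could be detected at this depth. With at most 1 read in a library, GP9 stayed far under 1 TPM in all 9 libraries. GP5, another subunit, stood at 0.00591 TPM in mock, and the ligand gene VWF had no count there. GP1BB was listed at 0, but all of its 959 exon bases are shared with other genes, so its 0 is uninformative.

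PF4 and PPBP encode the platelet chemokines CXCL4 and CXCL7, which megakaryocytes store in alpha granules, and they are neighbours on chromosome 4. PF4 lies on chr4:73980811-73982027 (minus strand; 773 exon bases in 3 blocks), and its counts were 2, 12 and 1 in mock, 9, 8 and 6 in the full-length group, and 4, 8 and 4 in the 16-nt group. Mock library 2 held most of the mock counts, so the mock group spanned both gRNA groups. The ratio of PF4 to mock was 1.61 (95% interval 0.807 to 3.33) in the full-length group and 1.11 (0.513 to 2.41) in the 16-nt group. In CPM every 16-nt library lay below every full-length library, at 0.164, 0.250 and 0.155 against 0.315, 0.275 and 0.252, and the ratio of their counts was 0.687 (0.339 to 1.36). Of the 2472 genes below the filter that had a count in every library, 8.05% separated in this way. Its near copy PF4V1 had 0 counts in all 9 libraries, and reads that fit both copies are uncertain. PPBP lies on chr4:73986439-73988190 (minus strand; 1307 exon bases in 3 blocks), and its counts were 1, 0 and 1 in mock, 0, 1 and 1 in the full-length group, and 3, 0 and 0 in the 16-nt group. PPBP was thus at single reads everywhere, with a ratio to mock of 1.05 (0.0763 to 14.5) and 1.56 (0.179 to 18.7).

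Of 18 other alpha granule genes 5 were on. They were led by SPARC at 218 ± 25.2 TPM, TGFB1 at 146 ± 14.0 and VIPAS39 at 28.8 ± 1.43, genes that many cell types transcribe, while PF4V1 and the chemokine CCL5 had no count. Of 6 tested genes 3 were higher and 3 lower in each comparison with mock. NBEAL2, which is needed to form alpha granules, had a log2 fold change of 0.34 (SE 0.12, edgeR unadjusted p = 0.0106, edgeR adjusted p = 0.992) in the full-length group. With the 16-nt gRNA its log2 fold change was 0.25 (SE 0.12, edgeR unadjusted p = 0.0459, edgeR adjusted p = 0.978).

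CD9 is a tetraspanin of megakaryocytes and platelets that many other cell types also carry. It lies on chr12:6199715-6238271 (plus strand), with 4165 exon bases in 14 blocks. Its counts were 258, 305 and 329 in mock, 270, 291 and 268 in the full-length group, and 178, 291 and 259 in the 16-nt group. As CPM they were 10.3, 9.54 and 11.97 in mock, 9.46, 9.99 and 11.3 in the full-length group, and 7.32, 9.08 and 10.0 in the 16-nt group. With the 16-nt gRNA 2 libraries lay below all of mock and the third lay inside its range, while the full-length group overlapped mock. Means were 10.6 ± 1.24, 10.2 ± 0.924 and 8.81 ± 1.38 CPM. The log2 fold change was -0.052 in the full-length group (SE 0.14, 95% interval -0.34 to 0.24, edgeR adjusted p = 0.992). With the 16-nt gRNA it was -0.26 (SE 0.14, 95% interval -0.56 to 0.030, edgeR unadjusted p = 0.0745, edgeR adjusted p = 0.978). Between the gRNA groups it was -0.21 (SE 0.14, 95% interval -0.51 to 0.082), and CD9 was lower in the 16-nt library of each same-numbered pair. The value in the 16-nt group was -0.15 without 16-nt library 1 and -0.17 without mock library 3.

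Of 14 other tetraspanin and surface protein genes 7 were on, led by CD63 at 189 ± 44.5 TPM, CD151 at 80.9 ± 4.62 and F11R at 56.8 ± 7.82. CD63, a tetraspanin of granule membranes, stood 34.2 ± 4.64 times above CD9 per length in mock. The activation marker SELP and TREML1 had no count in mock. Of 7 tested genes 1 was higher and 6 were lower in the full-length group, and 3 were higher and 4 lower in the 16-nt group, and none passed.

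**Figure D2:**
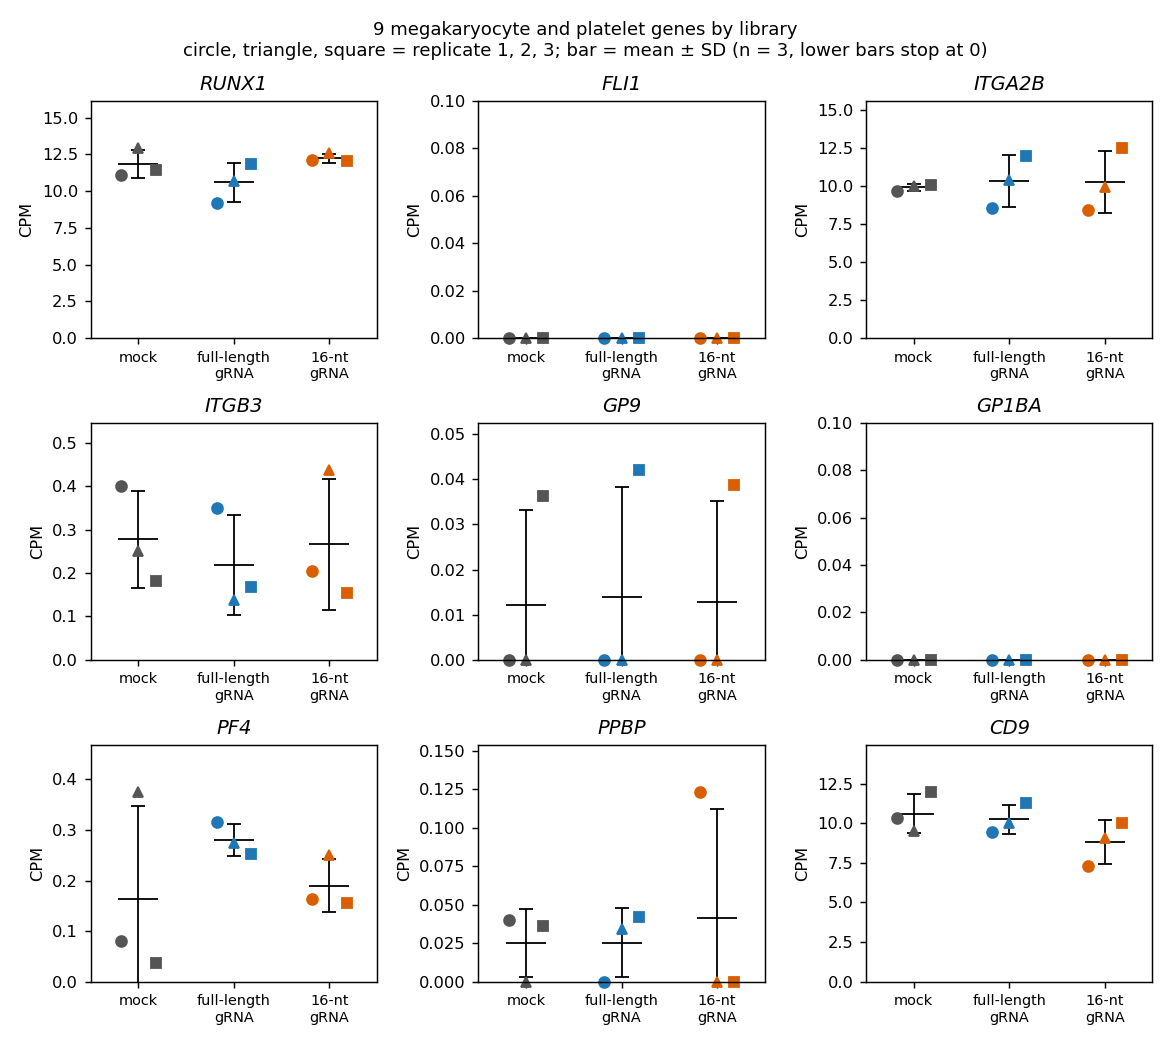
CPM on TMM-scaled library sizes of each gene in each of the 9 libraries, by group, with the group mean and SD (n = 3); each panel has its own axis. RUNX1, ITGA2B and CD9 lie between 7.32 and 12.9 CPM, the traces lie under 0.45 CPM, and FLI1 and GP1BA lie at 0.

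Only RUNX1, ITGA2B and CD9 passed the filter on low counts and could be tested. None of the 3 was called in any comparison at an edgeR adjusted p under 0.05, where 0.00657% of the 15213 tested genes, which is B2M alone, were called in each. None of the 3 had an unadjusted p under 0.05 in the main edgeR fit, and none of the 7 genes with a count did with DESeq2. Some alternative edgeR fits gave CD9 or RUNX1 an unadjusted p under 0.05, as listed in the closing section, without a call. The 6 gRNA libraries together differed from mock by -0.059 for RUNX1, 0.053 for ITGA2B and -0.16 for CD9 on the log2 scale. Over the 3 genes, the 95% intervals of each gRNA group against mock reached down to -0.56 (CD9, 16-nt) and up to 0.38 (ITGA2B, full-length). A shift inside a gene's own interval is not excluded, and these intervals rest on the spread between libraries. Against mock, none of the 3 genes separated from it in CPM, as 6.9% of tested genes did in the full-length group and 9.21% in the 16-nt group.

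**Figure D3:**
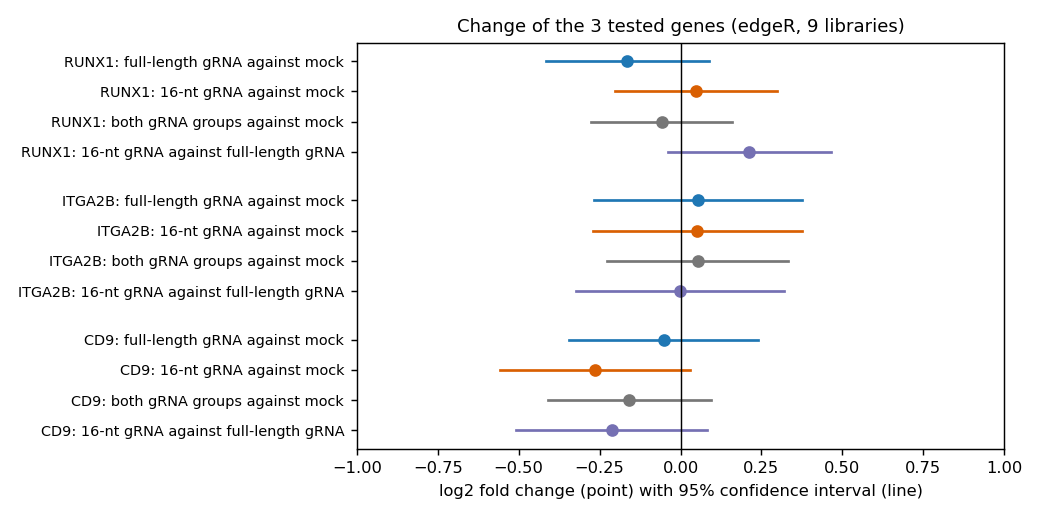
Log2 fold change (point) with its 95% confidence interval (line) of RUNX1, ITGA2B and CD9 in 4 comparisons, from 1 edgeR fit of 9 libraries. Every interval includes 0; that of CD9 in the 16-nt group against mock runs from -0.56 to 0.030.

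B2M gives a scale within the same libraries. In mock the 3 genes stood far below B2M, at 13.2% of its TPM for CD9, 8.97% for ITGA2B and 3.90% for RUNX1. The ratio of B2M to CD9 was 7.71 ± 0.974 in mock, 0.558 ± 0.1004 in the full-length group and 1.299 ± 0.303 in the 16-nt group (SD, n = 3). In TPM B2M was thus below CD9 in each full-length library and near it in the 16-nt group. TPM divides B2M by 7141 merged exon bases and CD9 by 4165, so this comparison depends on those lengths. In counts, not divided by length, B2M exceeded CD9 in full-length library 1 and in every 16-nt library.

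Thrombopoietin is the hormone that drives the lineage, and it signals through JAK2 and STAT proteins. Of 14 genes of its pathway 11 were on, among them SOCS1 at 117 ± 18.3 TPM, STAT5B at 94.3 ± 13.4 and LYN at 72.9 ± 7.55. Of 13 tested genes, 6 were higher and 7 lower in the full-length group, and 7 were higher and 6 lower in the 16-nt group. The kinase gene JAK2 had the smallest p in both, with log2 fold changes of -0.17 and -0.16 (SE 0.09 each). Of 19 genes of platelet agonist receptors and eicosanoid enzymes 9 were on, led by the G protein genes GNA13 at 32.6 ± 2.23 TPM and GNAQ at 23.2 ± 3.02 and the thrombin receptor gene F2R at 6.75 ± 0.403. The ADP receptor P2RY12 and the thrombin co-receptor F2RL2 had no count. Of 12 tested genes 4 were higher and 8 lower in each comparison with mock. The smallest p belonged to PTGS1 in the full-length group (log2 fold change -0.43, SE 0.27) and to the phospholipase gene PLA2G4A in the 16-nt group (log2 fold change -0.45, SE 0.18, edgeR unadjusted p = 0.0252).

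Of 19 cytoskeleton and proplatelet genes 12 were on, led by DIAPH1 at 107 ± 10.7 TPM, the filamin gene FLNA at 85.4 ± 2.55 and the myosin gene MYH9 at 66.1 ± 7.53, while GNG11 and BIN2 had no count. Of 14 tested genes 5 were higher and 9 lower in each comparison with mock. The smallest p belonged to DIAPH1 in the full-length group (log2 fold change -0.14, SE 0.08) and to WAS in the 16-nt group (log2 fold change 0.63, SE 0.39).

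Across the 8 lists and without the 9 genes, 69 of 119 genes were on, 32 were traces and 18 had no count. GP1BB, whose 0 is uninformative, is among the 18. Of all genes 20.3% were on, 27.7% were traces and 52.0% had no count in mock, but the lists were chosen by name. Of the 80 tested, 29 were higher and 51 lower in the full-length group, with a median log2 fold change of -0.024 beside 0.00021 over all tested genes. With the 16-nt gRNA 34 were higher and 46 lower, with a median of -0.036 beside 0.0019. These 2 comparisons share the mock libraries. Between the gRNA groups 43 were higher and 37 lower in the 16-nt group, with a median of 0.0079 beside 0.0035. None of the 80 was called by edgeR in these 3 comparisons. An edgeR unadjusted p under 0.05 was found for 3, 3 and 1 of them, beside 435, 377 and 141 of all 15213 tested genes. With DESeq2 the numbers were also 3, 3 and 1, but of the 107 listed genes that had a value there, beside 354, 308 and 94 of 33525 genes.

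**Figure D4:**
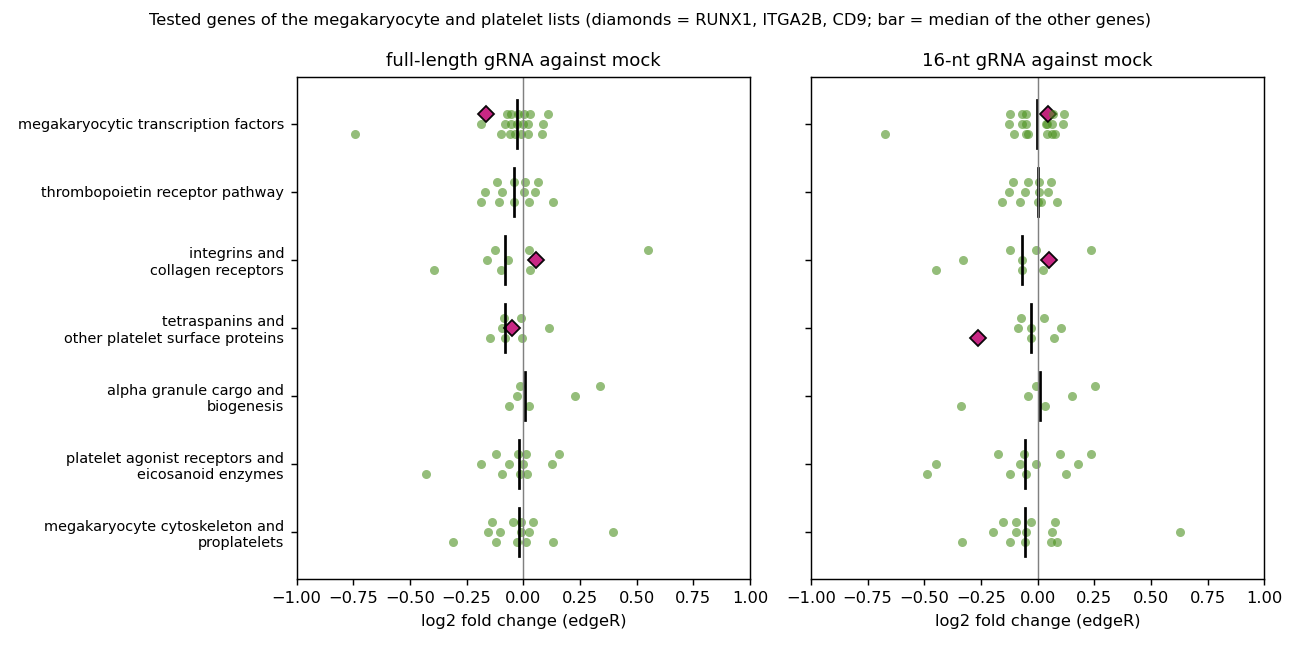
Log2 fold change against mock of the tested genes of 7 lists (circles) with the median of each list without the 9 genes (bar), and of RUNX1, ITGA2B and CD9 (diamonds), for the full-length and the 16-nt gRNA. The medians lie close to 0 in both panels, and the points farthest out are genes of low counts, such as WAS at 0.63 in the 16-nt group.

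Among the 11670 genes whose log2 CPM averaged 1 or more, the one most like RUNX1 over the 9 libraries was PRPSAP1, with a Pearson r of 0.949 of log2 CPM. For ITGA2B it was WDR91, at 0.989, and for CD9 it was CFAP251, at 0.926. These are the highest of many coefficients over 9 libraries that share group and replicate structure, and they stand as a description. Among themselves the 3 genes were less alike, with an r of 0.37 for RUNX1 and ITGA2B, -0.13 for RUNX1 and CD9, and 0.59 for ITGA2B and CD9.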

How the data were processed

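RNA sequencing was carried out on 9 K-562 libraries, 3 per group, grouped by their titles. The deposited file holds unnormalized counts of reads for each gene, beside its coordinates and exon length, which the authors made with STAR 2.7.6a and featureCounts (Subread 2.0.1) on GRCh38, per the submitters' processing notes. Which annotation release and strand setting were used, and how multi-mapping reads were handled, is not given in the sources used here, so genes that share exon bases are uncertain.

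The 9 genes and all gene lists were chosen with earlier results of these data known. Counts were tested by edgeR 4.0.16 (R 4.3.3) with its quasi-likelihood test (two-sided, TMM scaling, filterByExpr with a minimum count of 10, 1 fit of 9 libraries, no replicate block). Benjamini-Hochberg adjustment covered all 15213 tested genes, and an adjusted p under 0.05 was called. Intervals are 95%. CPM used TMM-scaled library sizes, and TPM used the deposited exon lengths, in which the exons of all isoforms are merged. Genes below the filter were compared as ratios of summed counts with exact conditional intervals. Scripts were tested on simulated data.

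Named from each list were the 3 highest genes in mock, at most 2 without a count, and the gene of smallest p in each comparison with mock. The gene most like each tested one and B2M were added. CBFB, ETV6, ERG, CD8A, MS4A1 and the genes of the closing section were named after their values were seen. Some genes that the rule took are not reported here. The labels give the groups the same replicate numbers. Deviations of same-numbered libraries from their group means correlated at 0.361, 0.196 and 0.572 between the gRNA groups, so the numbers may pair those libraries. Between mock and the full-length group they correlated at 0.199, 0.0334 and 0.209, each above every value of unlike numbers, which reached 0.0256. Between mock and the 16-nt group they correlated at 0.0606, -0.191 and 0.197, while unlike numbers reached 0.288. The numbers may thus pair mock with the full-length group, more weakly. With the replicate block, 886 and 921 tested genes had an edgeR unadjusted p under 0.05 in the full-length and 16-nt groups against mock, beside 435 and 377 without it. Alternatives were other scaling (RLE), DESeq2 1.42.0, other filters, the replicate block, fits of the compared groups alone, each library left out, and library 3 of both gRNA groups left out. Promoter windows are RefSeq's (GRCh38.p14). The GATAA motif and the unshared exon length were added after the data were seen.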

Additional observations from a re-analysis of the deposited data

How the results depend on the processing

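Under the alternatives run, 3, 4 or 7 of the 9 genes had a value and none was called, while FLI1 and GP1BA, without a count, had none in any fit. The number on in mock stayed at 3, except 2 at a threshold of 2 TPM. Of 162 alternative log2 fold changes of RUNX1, ITGA2B and CD9, 148 kept their sign and 14 turned it, all uncalled. With each library left out in turn, ITGA2B ran from -0.063 to 0.17 in the full-length group, from -0.11 to 0.17 in the 16-nt group, from -0.16 to 0.12 between the gRNA groups and from -0.028 to 0.11 for both against mock. CD9 in the full-length group ran from -0.13 to 0.043, and RUNX1 for both groups against mock from -0.10 to 0.0099. Without library 3 of both gRNA groups ITGA2B was -0.063, -0.11 and, for both groups, -0.086, CD9 in the 16-nt group had an edgeR unadjusted p of 0.0280, and RUNX1 between the gRNA groups one of 0.0472. The cause was not tested. The replicate block changed no call: RUNX1 between the gRNA groups was 0.21 (SE 0.11) with it, and CD9 in the 16-nt group was -0.27, with an edgeR unadjusted p of 0.0334 and an edgeR adjusted p of 0.814. 

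With low counts kept, 33525 genes were fitted and 6, 13 and 4 genes were called over the table in the full-length group, in the 16-nt group and between them, against 1 each. For both groups against mock 27 were called, FERMT3 among them, with a log2 fold change of -0.42 and an edgeR adjusted p of 0.0377, against 0.928 with the filter and 0.505 to 1.00 in the other alternatives. FERMT3 was -0.24 without mock library 1. The B2M difference between the gRNA groups was 0.99 and uncalled with those groups alone (edgeR adjusted p = 0.130), and 0.95 and uncalled without full-length library 2 (edgeR adjusted p = 0.123). Depth limits the traces: GP9, PPBP, PF4 and ITGB3 allow only ratios with wide intervals.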

Other observations

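GP5, a subunit of the GPIb-IX-V complex, had counts of 0, 1 and 0 in mock, 0, 0 and 1 in the full-length group, and 2, 1 and 3 in the 16-nt group. It was singled out after its values were seen and lay below the filter on low counts, so it was not among the 15213 tested genes. TUBB1, the beta-tubulin of the platelet marginal band, stood close to the level taken as on, at 0.982, 0.905 and 0.567 TPM in mock. Of the TUBB1 exon bases 35.5% are shared with the antisense gene ATP5F1E, so its place beside that level is uncertain. In the full-length group TUBB1 was at 0.880, 0.926 and 0.262 TPM, and in the 16-nt group at 0.732, 0.848 and 0.462 TPM. Library 3 was the lowest of each group for TUBB1, while GP9 had its single counts in those 3 libraries. The labels name no batch that these libraries share beyond the replicate number.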
